A study of Mus musculus with 12 samples.

Results

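The iron storage, iron transport and iron-sulfur sensing genes followed here through the 4 groups of the study were Fth1, Ftl1, Tfrc, Slc11a2, Slc11a1, Slc40a1, Ireb2, Aco1, Iscu and Nfs1. These genes were chosen with earlier results of these data known. Their rows were taken from the count table by gene symbol, and each of the 10 symbols matched 1 row among 55471 genes. All 10 were among the 18228 genes with enough counts to be tested. The cells were mouse bone marrow-derived dendritic cells (BMDC), antigen-presenting cells grown from marrow, and their RNA was sequenced after ribosomal RNA depletion. There were 12 libraries, 3 per group, with total counts from 49919648 to 77726101 per library.

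All cells came from C57BL/6 marrow grown with GM-CSF and carried a retroviral LMP vector with a human CD8 reporter, on which the transduced cells were purified. The shControl groups expressed a hairpin against firefly luciferase and the shPpargc1b groups a hairpin against Ppargc1b, the gene of the transcriptional coactivator PGC-1β. Each was left unstimulated or given IFN-β, a type I interferon, for 6 h. Every cell population was therefore transduced and sorted, controls included, and the knockdown was partial. Ppargc1b had a mean of 34.5 ± 1.94 CPM (read counts scaled to library size, mean ± SD, n = 3) in unstimulated shControl libraries and 19.4 ± 0.851 in unstimulated shPpargc1b libraries. With IFN-β it was 27.8 ± 3.93 and 18.7 ± 2.83, and its libraries did not overlap between the hairpins in either state. The labels do not say whether the 3 libraries of a group were separate cultures, so p-values here measure the spread between these libraries.

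Cells take up transferrin-bound iron through the transferrin receptor Tfrc and move it out of endosomes through Slc11a2. They store iron inside a ferritin shell built from Fth1 and Ftl1 chains, and release it through ferroportin, Slc40a1. When cytosolic iron is scarce, the iron regulatory proteins Aco1 (IRP1) and Ireb2 (IRP2) bind hairpins called iron-responsive elements, which blocks translation of ferritin and ferroportin and stabilises the Tfrc mRNA. Aco1 holds an iron-sulfur cluster when it is not bound to RNA, and such clusters are first built in mitochondria on the scaffold Iscu with sulfur delivered by Nfs1. Slc11a1 is the phagosomal metal transporter of macrophages and dendritic cells.

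The iron-responsive elements of these genes are shown because they are what the member proteins Aco1 and Ireb2 bind. They were found in GENCODE M21 transcripts (GRCm38) by searching the sense strand for a C, 5 bases, CAGTGN with N not G, and 5 bases able to pair with the first 5 (A with T, G with C or T). Each is printed as 30 bases in the sense direction, with the unpaired C and the loop in capitals. Fth1, Ftl1 and Slc40a1 hold 1 match each in the 5′ untranslated region, and Tfrc holds 4 in its 3′ untranslated region.
Fth1, chr19:9982732-9982761, plus strand: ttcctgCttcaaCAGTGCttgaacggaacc
Ftl1, chr7:45459778-45459807, minus strand: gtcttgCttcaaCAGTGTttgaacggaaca
Slc40a1, chr1:45925464-45925493, minus strand: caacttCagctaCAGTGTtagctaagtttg
Tfrc element 1, chr16:32631219-32631248, plus strand: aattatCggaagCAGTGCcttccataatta
Tfrc element 2, chr16:32631598-32631627, plus strand: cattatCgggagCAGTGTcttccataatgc
Tfrc element 3, chr16:32631663-32631692, plus strand: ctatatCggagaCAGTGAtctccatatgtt
Tfrc element 4, chr16:32631710-32631739, plus strand: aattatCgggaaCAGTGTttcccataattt

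Counted over the 17 bases from the unpaired C, the Fth1 and Ftl1 elements were identical at 16, with the single substitution C12T in the loop (Fth1 base first). Tfrc elements 1 and 2 were identical at 15 of 17 bases, with A4G and C12T, and the 4 Tfrc elements lay within 521 bases. A match of this form inside an untranslated region was found in 123 of 21901 protein-coding genes scanned, or 0.562%. The match was annotated in 4 of 5 protein-coding transcripts of Fth1, 1 of 2 of Ftl1, 1 of 3 of Tfrc and 1 of 4 of Slc40a1. The search found no match of these letters in transcripts of the other 6 members. Elements that depart from this pattern would be missed, so these 6 are not shown to lack one.

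Levels between genes were compared per kilobase of merged exons (RPKM, from library-size-scaled counts), and ferritin stood far above the rest. This length joins all annotated exons of a gene (3.469 kb for Fth1 and 9.0 kb for Slc40a1), and the order of the genes depends on it. In unstimulated shControl libraries Fth1 was at 2108 ± 55.6 RPKM and Ftl1 at 941 ± 55.0 (SD, n = 3). The next gene, Slc11a1, was at 24.5 ± 1.76, so that Ftl1 was at 38.4 times its level. Below it came Iscu at 15.6 ± 0.577, Ireb2 at 14.8 ± 0.488 and Aco1 at 13.4 ± 0.163, of which the libraries of Iscu and Ireb2 overlapped. Nfs1 at 5.17 ± 0.221, Slc11a2 at 4.43 ± 0.365, Slc40a1 at 3.603 ± 0.678 and Tfrc at 3.50 ± 0.448 were lowest, and Slc11a2 overlapped with Slc40a1 and Slc40a1 with Tfrc. The first 3 places were held by Fth1, Ftl1 and Slc11a1 in every group, with no overlap between neighbours. In unstimulated shPpargc1b libraries the 4 lowest genes overlapped each with its neighbour, and in shControl libraries with IFN-β no neighbours overlapped and Tfrc was last at 1.90 ± 0.118 RPKM.

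**Figure D1:**
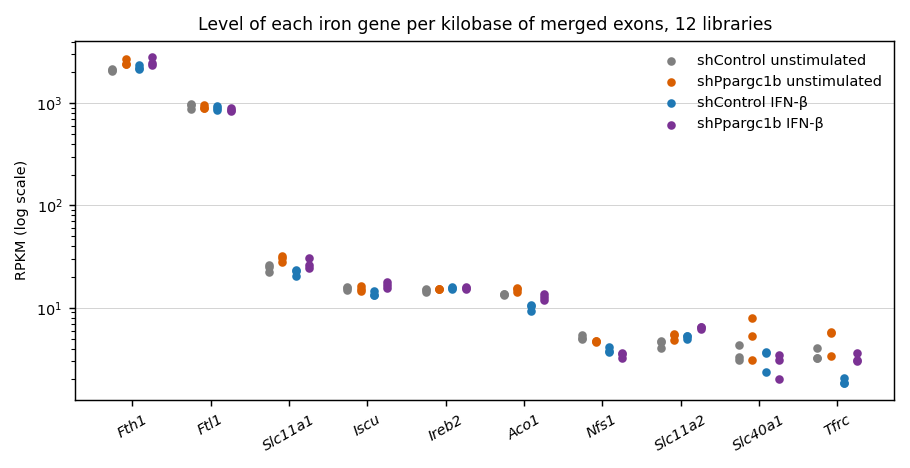
RPKM (vertical axis, log scale) of the 10 genes in each of the 12 libraries, 1 point per library and 1 colour per group. Fth1 and Ftl1 lie between 839 and 2821 RPKM, and the other 8 genes lie below 32 RPKM in every library.

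The first comparison asked how knockdown of Ppargc1b changed iron genes in unstimulated BMDC. Tfrc, Slc11a2, Slc11a1, Fth1 and Aco1 rose, by 0.17 to 0.50 on the log2 scale, and no member fell. The 5 members called were 5 of 10, where 23.6% of all genes tested were called in either direction, 12.4% higher and 11.1% lower (edgeR quasi-likelihood test, Benjamini-Hochberg adjusted p under 0.05 over all genes tested). The median log2 change was 0.21 over the members and -0.00 over all genes tested. For the absence of falls, no member was lower at an unadjusted p under 0.05 and DESeq2 called 0 lower, with 4 higher. The count fell to 2 without unstimulated shControl replicate 1, and to 3 without shControl replicate 2, shPpargc1b replicate 2 or shPpargc1b replicate 3, all unstimulated. With IFN-β present, knockdown again gave 5 members higher and 0 lower, against 24.2% of all genes called, 11.5% higher and 12.7% lower. These were Tfrc, Slc11a2, Slc11a1, Aco1 and Iscu, with a median over the members of 0.23 and of -0.01 over all genes. One member, Nfs1, was lower at an unadjusted p under 0.05 there, and DESeq2 called 6 higher and 0 lower.

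The second comparison asked what 6 h of IFN-β did in each hairpin group. In shControl cells Tfrc, Nfs1, Aco1 and Iscu fell and Slc11a2 rose, while 48.2% of all genes tested were called, 23.7% higher and 24.6% lower. In shPpargc1b cells Slc40a1, Tfrc, Nfs1 and Aco1 fell and Slc11a2 rose, where 42.6% of all genes were called, 21.4% higher and 21.2% lower. The 5 members called of 10 in each hairpin group are thus close to the share over all genes. Member medians were -0.15 in shControl and -0.12 in shPpargc1b, and those of all genes -0.03 and -0.02. Scaled by library totals alone, which place the median of all genes at -0.27 and -0.22, 8 members fell and 0 rose in each hairpin group, and 23.9% and 23.7% of called genes were higher, where the scaling used gave 49.0% and 50.2%. The rise of Slc11a2 is thus relative to the other genes.

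The difference between the 2 knockdown effects, tested as an interaction, passed for 0 of 10 members and for 0.730% of all genes tested. One member, Iscu, had an unadjusted p under 0.05, and DESeq2 also called 0. No member is therefore shown to respond to IFN-β differently in the 2 hairpin groups. Counting genes whose 3 libraries of one group lay entirely to one side of the other gave 5 members for knockdown without IFN-β, against 36.8% of all genes. It gave 7 for knockdown with IFN-β (38.7% of all genes), 6 for IFN-β in shControl (56.7%) and 4 for IFN-β in shPpargc1b (50.1%). Both knockdown counts include Nfs1, which was lower with knockdown, and the count without IFN-β does not include Tfrc. With 3 libraries against 3, an exact two-sided permutation test of a single gene cannot go below 0.1.

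**Figure D2:**
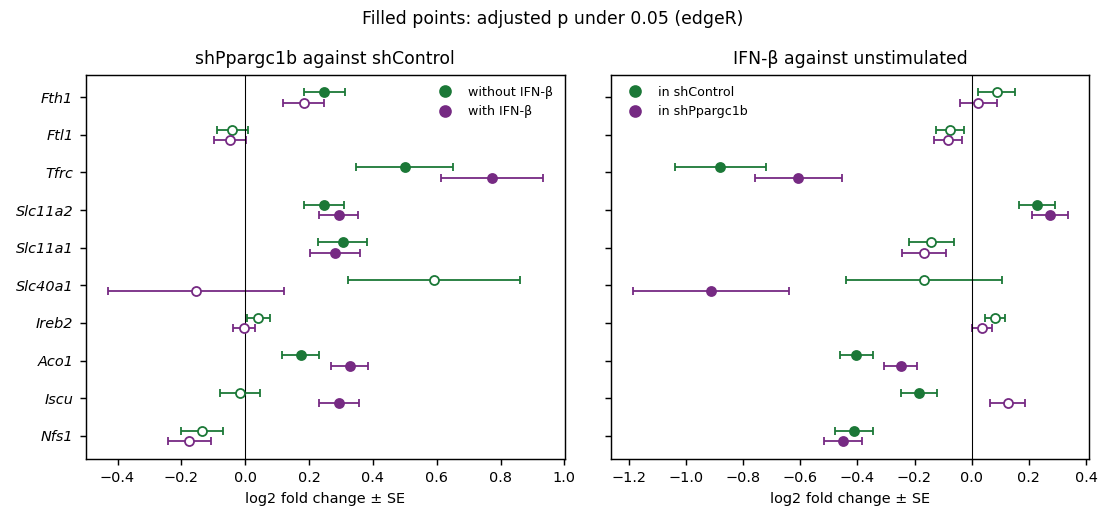
Log2 fold change with its SE (horizontal axis) of the 10 genes, for shPpargc1b against shControl (left) and IFN-β against unstimulated (right). Filled points passed an adjusted p of 0.05 in edgeR. On the left all filled points lie above 0, and on the right the only filled points above 0 are those of Slc11a2, which with library totals alone come to -0.01 and 0.07.

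Fth1 (ENSMUSG00000024661, chr19:9980598-9985098), the ferroxidase chain of ferritin, was the most abundant member. Its CPM were 7310, 7505 and 7119 in unstimulated shControl libraries and 8339, 9321 and 8387 in unstimulated shPpargc1b libraries. With IFN-β they were 7718, 8154 and 7440 in shControl and 8487, 9788 and 8197 in shPpargc1b. Every shPpargc1b library was above every shControl library of the same treatment. Fth1 rose by 0.25 ± 0.06 (log2 fold change ± SE) with knockdown in unstimulated cells (edgeR adjusted p = 0.0114). With IFN-β the difference was 0.18 ± 0.06 and missed the threshold (edgeR adjusted p = 0.0526, range 1.7e-05 to 0.281 over the alternatives). It passed in 11 of 19 alternatives, a block by run of library codes among them (0.18, edgeR adjusted p = 0.0019). Without shPpargc1b replicate 2 with IFN-β it came to 0.09. The unstimulated call was lost without shPpargc1b replicate 2, the highest library (edgeR adjusted p = 0.0663). IFN-β gave 0.09 in shControl and 0.02 in shPpargc1b, with edgeR adjusted p of 0.292 and 0.810.

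Ftl1 (ENSMUSG00000050708, chr7:45457944-45459884, minus strand), the light chain that aids mineral formation, stayed in a narrow range. It had 1177, 1316 and 1291 CPM in unstimulated shControl libraries and 1214, 1192 and 1272 in unstimulated shPpargc1b libraries. With IFN-β the values were 1197, 1148 and 1244 in shControl and 1155, 1124 and 1194 in shPpargc1b. The libraries of the groups overlapped in all 4 comparisons, the log2 changes lay between -0.08 and -0.04, and no comparison passed the test (edgeR adjusted p 0.199 to 0.618). With library totals alone IFN-β gave called falls of -0.32 in shControl and -0.29 in shPpargc1b (edgeR adjusted p = 6.4e-05 and 2.1e-04). The shControl fall also passed without unstimulated shControl replicate 1 (-0.14, edgeR adjusted p = 0.0281).

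The ratio of Fth1 to Ftl1 CPM was 5.81 ± 0.358 in unstimulated shControl and 7.09 ± 0.642 in unstimulated shPpargc1b libraries (SD, n = 3), without overlap (exact permutation p = 0.1, the smallest possible). With IFN-β it was 6.51 ± 0.564 and 7.64 ± 0.957, with overlap (exact permutation p = 0.2). The 2 ferritin genes together took 0.930% of all counts in unstimulated shControl and 1.06% in unstimulated shPpargc1b libraries. Named processed copies of Fth1 and Ftl1 held 0.0408% and 0.326% as many counts as their parents. Reads that also map to such copies are not counted for either gene, so the true ferritin levels may be higher. Ftl1 exons overlap the antisense gene Gm10252 over 355 bases, and that gene had 910 counts in all 12 libraries.

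Tfrc (ENSMUSG00000022797, chr16:32608920-32632794), the transferrin receptor, showed the largest called changes among the members with knockdown. Its CPM were 20.1, 19.99 and 24.8 in unstimulated shControl and 21.1, 35.7 and 34.8 in unstimulated shPpargc1b libraries. With IFN-β they were 12.6, 11.3 and 11.4 in shControl and 22.5, 18.8 and 19.0 in shPpargc1b. All shControl libraries with IFN-β were below every other library, and shPpargc1b replicate 1 without IFN-β lay within the shControl range. Knockdown raised Tfrc by 0.50 ± 0.15 (log2 fold change ± SE) without IFN-β (edgeR adjusted p = 0.0260) and by 0.77 ± 0.16 with it (edgeR adjusted p = 0.00219). IFN-β changed it by -0.88 ± 0.16 in shControl (edgeR adjusted p = 2.6e-04) and by -0.61 ± 0.15 in shPpargc1b (edgeR adjusted p = 0.00442).

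With knockdown and IFN-β together, Tfrc therefore had a mean of 20.1 ± 2.10 CPM, near the 21.6 ± 2.77 of untreated shControl cells, a pair that was not tested. The unstimulated knockdown call was lost in DESeq2 (log2 change 0.50, adjusted p = 0.0531), in a fit of only the libraries compared (0.50, edgeR adjusted p = 0.0530) and without any of shControl replicates 1 and 2 and shPpargc1b replicates 2 and 3 (edgeR adjusted p up to 0.133). The other 3 Tfrc calls held in every alternative. The ratio of Tfrc to Fth1 CPM in shControl with IFN-β was 0.512 times that in unstimulated shControl, and in shPpargc1b with IFN-β it was 1.51 times that in shControl with IFN-β, without overlap in either (exact permutation p = 0.1, the smallest possible). The groups overlapped in the other comparisons of this ratio, which was 1.18 times as high with knockdown without IFN-β (exact permutation p = 0.4) and 0.656 times as high with IFN-β in shPpargc1b (exact permutation p = 0.2).

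Tfrc is high in dividing and in erythroid cells. The summed CPM of 8 proliferation genes was 331 to 428 in unstimulated shControl, 262 to 370 in unstimulated shPpargc1b, 314 to 346 in shControl with IFN-β and 243 to 329 in shPpargc1b with IFN-β. One of these 8 genes rose and 1 fell with knockdown without IFN-β, and the part of proliferation in the result was not tested. The 7 erythroid genes, haemoglobins included, summed to at most 0.360 CPM in every library.

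Slc11a2 (ENSMUSG00000023030, chr15:100387898-100425072, minus strand), the divalent metal transporter that carries iron out of endosomes, rose with both treatments. It had 25.5, 29.8 and 29.2 CPM in unstimulated shControl libraries and 31.1, 34.2 and 35.0 in unstimulated shPpargc1b libraries. With IFN-β it had 31.8, 33.8 and 33.4 in shControl and 41.3, 41.0 and 39.1 in shPpargc1b. The untreated shControl libraries were lowest and the shPpargc1b libraries with IFN-β highest, without overlap in any of the 4 comparisons. Knockdown raised it by 0.25 ± 0.06 without and 0.29 ± 0.06 with IFN-β (edgeR adjusted p = 0.00897 and 0.00280), and both calls held in every alternative. IFN-β raised it by 0.23 ± 0.06 in shControl and 0.27 ± 0.06 in shPpargc1b (edgeR adjusted p = 0.00681 and 0.00208). These 2 rises depended on the scaling: with library totals alone Slc11a2 came to -0.01 and 0.07. The shControl rise was also lost without unstimulated shControl replicate 1 (edgeR adjusted p = 0.0624).

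Slc11a1 (ENSMUSG00000026177, chr1:74375195-74386062), the phagosomal transporter also called NRAMP1, rose with knockdown in both states. It had 83.6, 96.1 and 93.0 CPM in unstimulated shControl libraries and 114.1, 118.3 and 104.5 in unstimulated shPpargc1b libraries. With IFN-β it had 75.5, 84.9 and 86.7 in shControl and 91.6, 112.7 and 96.1 in shPpargc1b. Each shPpargc1b library was above each shControl library of the same treatment. The rise was 0.31 ± 0.08 without IFN-β (edgeR adjusted p = 0.00902) and 0.28 ± 0.08 with it (edgeR adjusted p = 0.0153). The first was lost without unstimulated shControl replicate 1 (edgeR adjusted p = 0.0528), and the second without shControl replicate 1 or shPpargc1b replicate 2 with IFN-β (0.0930 and 0.0941). IFN-β gave -0.14 in shControl and -0.17 in shPpargc1b, neither past the threshold (edgeR adjusted p = 0.152 and 0.0998). Both passed as falls with a block by run of library codes (edgeR adjusted p = 0.0451 and 0.0184), and also with library totals alone and with every gene of at least 1 count.

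Slc11a1 is a gene of phagocytes, and some markers of phagocytes differed with the knockdown. The 10 macrophage markers summed to 12793 to 13440 CPM in unstimulated shControl and 8256 to 8705 in unstimulated shPpargc1b libraries, with 0 higher and 4 lower, and with IFN-β 0 were higher and 5 lower. Lyz2, at 5108 to 10713 CPM, made up most of this sum and fell (-0.79), as did Mrc1 (-1.51) and Mertk (-0.40), but Csf1r (-0.02), Cd68 (-0.01), C1qa (0.00), Adgre1 (0.09), Fcgr1 (0.18) and C1qb (-0.22) did not pass, and the median over the 10 was -0.11. The 8 neutrophil markers summed to 41.0 to 95.9 and 90.0 to 158 CPM in the same unstimulated groups, with 1 higher, S100a8 (0.83), and 0 lower. S100a8 reached 78.9 CPM, while Ly6g (-0.42), Elane (-1.46) and Mpo (-0.92) stayed at or below 1.10 CPM and did not pass. Ngp (0.75), Camp (0.81), S100a9 (0.73) and Ltf (0.34) were positive but did not pass either, and the median over the 8 was 0.53. The dendritic markers summed to 3450 to 4060 and 4023 to 4602 CPM, with 4 of 8 tested higher and 0 lower, and Cd209a among the 9 was too low to test. In bulk RNA, fewer cells of a type and less RNA per cell cannot be told apart, and the part of these markers in the member results was not tested.

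Slc40a1 (ENSMUSG00000025993, chr1:45908068-45926523, minus strand), encoding the iron exporter ferroportin, was the most variable member. Its CPM were 39.4, 27.9 and 30.0025 in unstimulated shControl and 71.9, 27.8 and 47.4 in unstimulated shPpargc1b libraries. With IFN-β they were 33.0, 21.4 and 32.2 in shControl and 18.3, 28.1 and 31.3 in shPpargc1b. Within groups its coefficient of variation was 18.8% to 45.1%, where that of Ireb2 was 0.764% to 3.30%. Unstimulated shPpargc1b replicate 1 was the highest of all 12 libraries and shPpargc1b replicate 1 with IFN-β the lowest, and the groups overlapped in every comparison. IFN-β changed Slc40a1 by -0.91 ± 0.27 in shPpargc1b (edgeR adjusted p = 0.0133), a call lost without either of those libraries (edgeR adjusted p = 0.101 without the unstimulated library and 0.0662 without the treated one). Knockdown gave 0.59 ± 0.27 without IFN-β (edgeR adjusted p = 0.135) and -0.15 ± 0.28 with it (edgeR adjusted p = 0.744), and the interaction of -0.75 did not pass (edgeR adjusted p = 0.543).

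Without unstimulated shPpargc1b replicate 2, the unstimulated knockdown difference of Slc40a1 passed the test (0.88, edgeR adjusted p = 0.0137). Without unstimulated shPpargc1b replicate 1 it came to 0.22 (edgeR adjusted p = 0.607). Ferroportin is high in macrophages that recycle haem iron. The 4 markers of such macrophages (Spic, Vcam1, Cd163 and Hmox1) summed to 976 to 1082 CPM in unstimulated shControl, 790 to 1331 in unstimulated shPpargc1b, 1000 to 1270 in shControl with IFN-β and 644 to 944 in shPpargc1b with IFN-β. Nearly all of this sum was Hmox1 (626 to 1324 CPM), since Spic, Vcam1 and Cd163 reached at most 4.30, 16.4 and 0.803 CPM in any library. The part of these genes in the result was not tested.

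**Figure D3:**
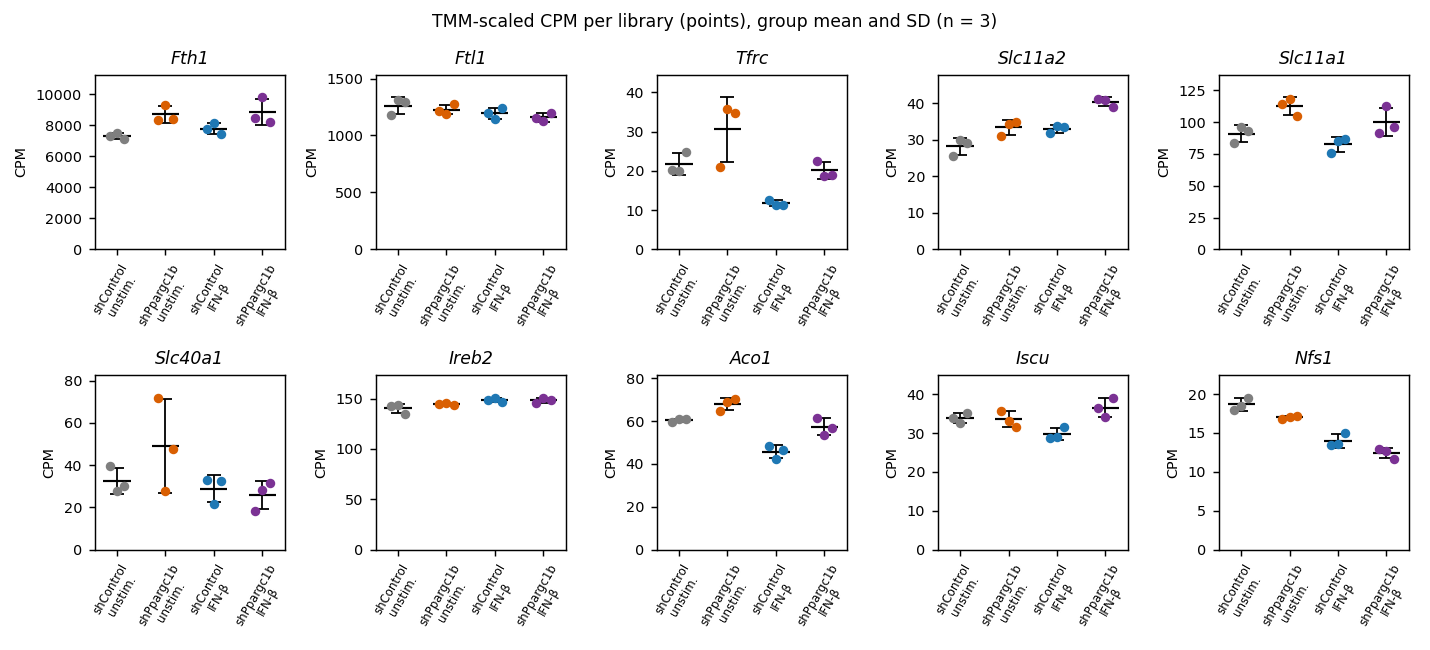
CPM (vertical axes, from 0) of each of the 10 genes by group, 1 point per library, with the group mean and SD (n = 3) in black. Tfrc is lowest in shControl with IFN-β, Slc11a2 is highest in shPpargc1b with IFN-β, Nfs1 is lower in both IFN-β groups, and Slc40a1 spreads most in unstimulated shPpargc1b.

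Ireb2 (ENSMUSG00000032293, chr9:54863789-54912530), which encodes IRP2, a protein controlled mainly by its degradation when iron is plentiful, stayed near one level. It had 142.8, 143.3 and 135.0 CPM in unstimulated shControl libraries and 144.9, 145.3 and 143.2 in unstimulated shPpargc1b libraries. With IFN-β it had 149.0, 150.7 and 146.3 in shControl and 145.8, 150.4 and 148.5 in shPpargc1b. The 12 libraries thus lay between 135 and 151 CPM. No comparison passed the test, the nearest being IFN-β in shControl at 0.08 ± 0.04 (edgeR adjusted p = 0.0680, range 9.5e-04 to 0.460 over the alternatives), where library totals alone turned the sign.

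Aco1 (ENSMUSG00000028405, chr4:40143081-40198338) encodes IRP1, which is a cytosolic aconitase when it carries its cluster. It had 59.5, 60.8 and 60.7 CPM in unstimulated shControl libraries and 64.8, 69.0 and 70.3 in unstimulated shPpargc1b libraries. With IFN-β it had 48.3, 42.2 and 46.4 in shControl and 61.5, 53.6 and 56.8 in shPpargc1b. The shControl libraries with IFN-β were the lowest of all, and the groups did not overlap in any of the 4 comparisons. Aco1 rose with knockdown by 0.17 ± 0.06 without IFN-β (edgeR adjusted p = 0.0380) and 0.33 ± 0.06 with it (edgeR adjusted p = 6.4e-04). It fell with IFN-β by 0.40 in shControl and by 0.25 in shPpargc1b (edgeR adjusted p = 2.7e-05 and 0.00229). The unstimulated knockdown call was lost with library totals (edgeR adjusted p = 0.0708) and when any of the 3 shControl libraries or shPpargc1b replicates 2 and 3 was left out (up to 0.128), and the other 3 calls held in every alternative.

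Iscu (ENSMUSG00000025825, chr5:113772748-113778288), the scaffold for new clusters, rose with knockdown in the presence of IFN-β. It had 33.9, 32.6 and 35.1 CPM in unstimulated shControl libraries and 35.8, 33.2 and 31.7 in unstimulated shPpargc1b libraries. With IFN-β it had 28.7, 29.1 and 31.6 in shControl and 36.4, 34.1 and 39.1 in shPpargc1b. The unstimulated groups overlapped, and the groups with IFN-β did not. Knockdown gave -0.02 without IFN-β (edgeR adjusted p = 0.899) and 0.29 ± 0.06 with it (edgeR adjusted p = 0.00289), the latter in every alternative. IFN-β gave -0.18 in shControl (edgeR adjusted p = 0.0246, but up to 0.139 with shControl replicate 1 or 2 with IFN-β, shPpargc1b replicate 1 with IFN-β or unstimulated shControl replicate 3 left out) and 0.13 in shPpargc1b (edgeR adjusted p = 0.123). The interaction of 0.31 ± 0.09 was not past the threshold (edgeR adjusted p = 0.142, range 0.0601 to 0.365 over the alternatives).

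Nfs1 (ENSMUSG00000027618, chr2:156123639-156144186, minus strand), the cysteine desulfurase that supplies sulfur, fell with IFN-β in both hairpin groups. It had 17.97, 18.5 and 19.5 CPM in unstimulated shControl libraries and 16.8, 16.9986 and 17.2 in unstimulated shPpargc1b libraries. With IFN-β it had 13.4, 13.5 and 15.1 in shControl and 12.9, 12.7 and 11.6 in shPpargc1b. Every library with IFN-β was below every library without it. It fell by 0.41 in shControl and by 0.45 in shPpargc1b (edgeR adjusted p = 8.4e-05 and 5.0e-05), in every alternative. Knockdown gave -0.14 and -0.17, with no overlap between the hairpins in either state, but neither passed the test (edgeR adjusted p = 0.157 and 0.0744). Nfs1 shares 148 exon bases with Romo1 on the other strand, which had 6859 counts over all libraries and group means of 8.89 to 10.7 CPM. The strand setting of the counting is not given in the sources used here, so reads in the shared bases cannot be told apart.

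The wider iron system was read from 5 lists holding 86 other genes, of which 82 could be tested. With IFN-β, 10 genes rose and 44 fell in shControl, and 10 rose and 39 fell in shPpargc1b. That is 65.9% and 59.8% called, above the 48.2% and 42.6% of all genes given before, and the medians were -0.24 and -0.22. With knockdown 11 rose and 12 fell without IFN-β, and 11 rose and 12 fell with it, which is 23 of 82 called in each state, where 23.6% and 24.2% of all genes were called. With library totals alone IFN-β gave 9 higher and 60 lower in shControl and 7 higher and 58 lower in shPpargc1b, and knockdown with IFN-β gave 14 higher and 9 lower. The interaction passed for 0 of 82, with 10 at an unadjusted p under 0.05 and 2 called by DESeq2, which were Mcoln1 and Slc25a37.

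Many genes that build iron-sulfur clusters fell with IFN-β. Of all genes tested, 24.6% fell in shControl and 21.2% in shPpargc1b. Of 20 mitochondrial assembly genes, 14 fell and 1 rose in shControl (median log2 change -0.44), and 10 fell and 1 rose in shPpargc1b (median -0.27). Glrx5, the glutaredoxin that passes on new clusters, went from 11.2 to 6.16 CPM in shControl and from 10.5 to 7.06 in shPpargc1b (-0.86 and -0.58, edgeR adjusted p = 2.1e-07 and 2.2e-05). Lyrm4, the partner of Nfs1, fell to a like extent (-0.64 and -0.70), and Lyrm7 fell in shControl (-1.03) from a level below 1 CPM. Isca2 was the gene that rose (0.34 and 0.36). Of 11 cytosolic assembly genes 6 fell and 1 rose in shControl and 7 fell and 1 rose in shPpargc1b, with Bola2 (-0.46 and -0.40), Glrx3 (-0.39 and -0.41) and Ciao3 (-0.47 and -0.32) among the falls and Ciao2b as the rise (0.48 and 0.34).

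With knockdown, 4 of 20 mitochondrial assembly genes were called without IFN-β and 3 of 20 with it, and 2 of 11 cytosolic ones in each state, not above the 23.6% and 24.2% of all genes. In the mitochondrial list 1 rose and 3 fell without IFN-β and 1 rose and 2 fell with it. Fdx1 rose (0.28) and Hscb fell (-0.33) without IFN-β, and Gfer rose (0.31) and Iba57 fell (-0.34) with it. In the cytosolic list 1 rose and 1 fell in each state, with Nubp2 higher (0.23 and 0.33) and Ciao2a lower (-0.40 and -0.25). Ciao2a is the adaptor that directs clusters to Aco1.

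Among other iron-sulfur proteins, Rsad2 (viperin), an antiviral enzyme with a cluster, rose from 60.1 to 3245 CPM in shControl and from 70.5 to 2684 in shPpargc1b with IFN-β (log2 changes of 5.75 and 5.25). Mocs1, of molybdenum cofactor synthesis, also rose with IFN-β (0.73 and 0.70). Of the 13 tested, 8 fell in shControl and 6 in shPpargc1b, where 24.6% and 21.2% of all genes fell. The ribosome-recycling factor Abce1 was among the falls (-0.99 and -0.80), as were Cisd1 (-0.86 and -0.58) and Elp3 (-0.73 and -0.70). With knockdown 1 rose and 2 fell without IFN-β, and 3 rose and 2 fell with it. That is 23.1% and 38.5% called, where 23.6% and 24.2% of all genes were called. Abce1 rose (0.26 and 0.45), Ppat rose with IFN-β (0.45), and Mocs1 fell in both states (-0.16 and -0.19).

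**Figure D4:**
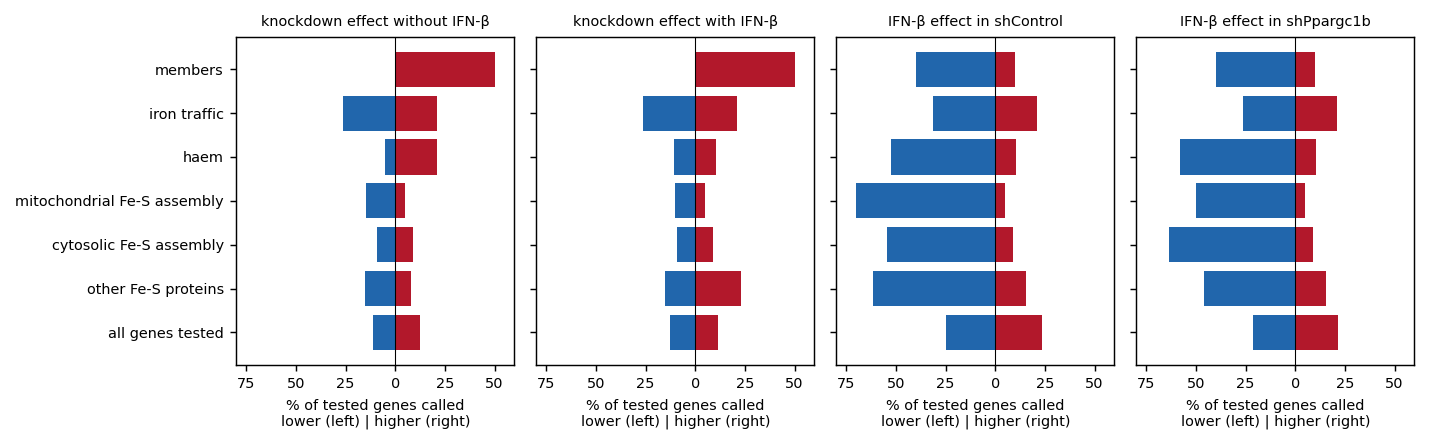
Share of tested genes called lower (blue, left of 0) and higher (red, right of 0) at an adjusted p of 0.05 in each of the 4 comparisons, for the 10 members, the 5 lists of other iron genes and all 18228 genes tested. In the 2 IFN-β panels the bars of haem, assembly and other iron-sulfur genes reach further to the lower side than those of all genes, and in the 2 knockdown panels the members have no bar on the lower side.

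Of 22 iron traffic genes 19 could be tested, since Steap4, Cybrd1 and Ftmt had at most 17 counts in any library. Knockdown gave 4 higher and 5 lower in each state, which is 47.4% called, where 23.6% and 24.2% of all genes were called. The siderophore binder Lcn2 rose (1.02 and 0.82) from 11.1 to 22.7 CPM without and from 17.3 to 30.7 with IFN-β, and transferrin itself, Trf, rose from 498 to 644 and from 431 to 575 CPM (0.37 and 0.41). Hfe, a partner of the transferrin receptor, fell (-0.73 and -0.51), and so did Ncoa4, the receptor that takes ferritin to the lysosome (-0.34 and -0.47). Heph rose without IFN-β (2.03) from 0.0856 to 0.358 CPM, and Cp fell with it (-0.61).

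IFN-β gave 4 higher and 6 lower iron traffic genes in shControl and 4 higher and 5 lower in shPpargc1b. That is 52.6% and 47.4% called, near the 48.2% and 42.6% of all genes. Cp, a copper ferroxidase that works with ferroportin, rose from 5.21 to 30.4 and from 4.53 to 20.01 CPM (2.55 and 2.15). The mitochondrial iron importer Slc25a37 rose (1.10 and 0.57) and the iron and zinc transporter Slc39a14 fell (-0.72 and -0.59). Steap3 also fell (-0.37 and -0.33), and Heph fell in shPpargc1b (-1.04). Ncoa4 rose with IFN-β (0.63 and 0.50).

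All 19 haem genes could be tested. With IFN-β 2 rose and 10 fell in shControl, and 2 rose and 11 fell in shPpargc1b. That is 63.2% and 68.4% called, where 48.2% and 42.6% of all genes were called. Hmox2, the constitutive haem oxygenase, rose (1.02 and 0.98), as did the haemoglobin binder Hp (0.59 in both), while Flvcr2 (-2.62 and -1.68) and the haemoglobin receptor Cd163 (-1.997 and -2.07) fell from below 1 CPM. With knockdown 4 rose and 1 fell without IFN-β and 2 rose and 2 fell with it, which is 26.3% and 21.1% called and near the 23.6% and 24.2% of all genes. The porphyrin exporter Abcg2 (0.78 and 0.80) and the first enzyme of haem synthesis, Alas1 (0.43 and 0.34), rose, and Hmox2 fell (-0.35 and -0.39). Hmox1, the inducible haem oxygenase, fell with IFN-β present (-0.46, edgeR adjusted p = 0.0499), from a mean of 1125 to 818 CPM.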

How the data were processed

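RNA was sequenced from 12 libraries after ribosomal RNA depletion. The deposited values are raw read counts per gene, which the authors made by trimming reads with Trim Galore (0.6.0 in the submitters' processing notes), mapping them to mm10 with STAR (2.7.8a in those notes, another version in the published methods) and counting over GENCODE genes. Groups came from the sample labels. Replicates are unnumbered there, so the numbers used here follow deposition order and pair nothing.

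Counts were kept for 18228 of 55471 genes (edgeR 4.0.16, filterByExpr, minimum count 10, minimum total 15), scaled by TMM and fitted over all 12 libraries with 1 mean per group. Quasi-likelihood F-tests gave log2 fold changes, their SE and p-values adjusted over all genes tested, with 0.05 as threshold. The fit was tested on simulated counts with 200 genes changed. CPM are TMM-scaled. TMM factors were 1.07 to 1.09 without and 0.914 to 0.941 with IFN-β, so that IFN-β changes depend on the scaling. Named list genes were the 2 largest called rises and falls per list and comparison. Some genes that this rule would name are not reported here. Trf, Ncoa4 with IFN-β, Lyrm4, Glrx3 and Elp3 in shControl and the second value of each pair were added after their values were seen. The members, lists and tests were chosen with earlier results of these data known. Alternatives were DESeq2 1.42.0, relative log expression factors, library totals, no filter on low counts, the compared libraries alone, a block by run of library codes and each library left out. For Fth1 and Ftl1, adding the named copies to the parent gene was a further alternative. Elements and exon lengths came from GENCODE M21 (GRCm38).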

Additional observations from a re-analysis of the deposited data

How the results depend on the processing

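Of 900 values of single members under the alternatives, 802 kept their direction and their side of the threshold, 24 lost a call, 36 gained one and 38 changed sign. Scaling by library totals alone placed the median of all genes at -0.27 for IFN-β in shControl and -0.22 in shPpargc1b, and 8 members were then called in each. It turned IFN-β log2 changes to -0.15 for Fth1, -0.01 for Slc11a2 and -0.16 for Ireb2 in shControl, and to -0.18 for Fth1, -0.17 for Ireb2 and -0.08 for Iscu in shPpargc1b. It also turned the knockdown change of Ireb2 with IFN-β to 0.02 and the interactions of Ftl1 and Slc11a1 to 0.03 and 0.01. With it 13 other iron-sulfur proteins were called for IFN-β in shPpargc1b, and 1 cytosolic assembly gene for knockdown without IFN-β.

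With every gene of at least 1 count, 1 member (Slc40a1) passed the interaction, and 2 and 1 mitochondrial assembly genes were called for knockdown without and with IFN-β. The knockdown change of Iscu without IFN-β was then 0.0041 and that of Ireb2 with IFN-β 0.01, and the latter was 0.02 in a fit of the compared libraries alone. The cause was not tested.

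Leaving out each library in turn left 2 to 5 members called for knockdown without IFN-β (2 without unstimulated shControl replicate 1). Some log2 changes that had not passed the test crossed 0. For knockdown they ran from -0.06 to 0.03 for Iscu without IFN-β, and with it from -0.34 to 0.03 for Slc40a1 and from -0.03 to 0.02 for Ireb2. For IFN-β they ran from -0.28 to 0.03 for Slc40a1 in shControl and from -0.05 to 0.08 for Fth1 in shPpargc1b. Interactions ran from -0.16 to 0.01 for Fth1, -0.05 to 0.06 for Ftl1, -0.13 to 0.05 for Slc11a1, -0.07 to 0.0023 for Ireb2 and -0.08 to 0.01 for Nfs1.

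The labels give no replicate numbers that could pair libraries, so a block by run of consecutive library codes was fitted in their place. Libraries of the same run of codes correlated at 0.028 to 0.146 in their deviations from group means (18 pairs), and those of different runs at -0.154 to 0.056 (36 pairs). The block called 6 members for knockdown with IFN-β (Fth1 added, edgeR adjusted p = 0.0019), 7 for IFN-β in shControl (Slc11a1 and Ireb2 added, 0.0451 and 0.0476) and 6 in shPpargc1b (Slc11a1 added, 0.0184). DESeq2 for the lists and the left-out libraries for the assembly lists were chosen after seeing the data, and kept the number called in each list within 1.5 times in the knockdown and IFN-β comparisons where they were run, while the interaction over the lists went from 0 to 2 in DESeq2. The members had at least 584 counts in every library, and the number of libraries, 3 a group, limits the precision.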
